A study of Mus musculus with 5 samples.

Results

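The 37 genes described here encode the enzymes that oxidize pyruvate, run the tricarboxylic acid (TCA) cycle, use ketone bodies and break down the branched-chain amino acids. They were taken from the 49671 genes of the count table as a list written by pathway, without use of any measured value, and fall into 6 steps: 5 genes of pyruvate dehydrogenase, 12 of the TCA cycle, 3 of the malate-aspartate shuttle, 4 of anaplerosis (carboxylation of pyruvate) and the malic enzymes, 3 of ketone body use and 10 of branched-chain amino acid breakdown. All 37 had enough counts to be tested. Their messenger RNA was measured by RNA-seq in whole hearts of C57BL6/J mice at postnatal day 2, in 3 pools of CharmeWT hearts and 2 pools of CharmeKO hearts. Charme is a long noncoding RNA of cardiac and skeletal muscle, and the CharmeKO allele carries a PolyA signal inserted into its locus in the whole animal. A CharmeWT pool held 9 hearts and a CharmeKO pool 3 hearts of littermates, so genotype and pool size cannot be told apart. The question was how the absence of Charme changes the transcripts of the newborn heart.

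Around birth the mammalian heart turns from glucose and lactate as its main fuels to the oxidation of fatty acids in mitochondria. Ketone bodies and amino acids are oxidized there too. Pyruvate dehydrogenase converts pyruvate into acetyl-CoA, the TCA cycle oxidizes acetyl-CoA to carbon dioxide, and ketone bodies and branched-chain amino acids enter as acetyl-CoA or succinyl-CoA. Pyruvate carboxylase and the malic enzymes exchange carbon between pyruvate and the cycle, and the malate-aspartate shuttle carries reducing equivalents from the cytosol into mitochondria.

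Counts on genes totalled 16721055 to 21646378 per pool. Charme had 183 to 810 counts in the CharmeWT pools and 57 and 79 counts in the CharmeKO pools, a fitted log2 difference of -2.49 (standard error 0.549). Mitochondrially encoded genes took 21.1% of the counts in CharmeKO pool 1 and 9.68% to 11.1% in the other 4 pools. CPM below are counts scaled to library size and to a normalization factor of each pool (TMM). That factor was 0.845 in CharmeKO pool 1 and 1.02 to 1.09 in the other 4 pools. The 12 cardiomyocyte markers looked up, among them Tnnt2 and Myh6, were abundant in every pool. Their summed levels were 54270 to 66559 CPM in CharmeWT and 68509 and 60483 CPM in CharmeKO pools 1 and 2. As shares of the unscaled counts they were 5.90% to 6.84% in CharmeWT and 5.78% and 6.23% in CharmeKO pools 1 and 2. These sums join markers that differed in direction, 8 with higher and 4 with lower fitted values. In both CharmeKO pools, Myh6 and Actn2 lay below every CharmeWT pool and Myh7 and Myl7 above, and the others overlapped. Myh6 was at 14062 to 17256 CPM in CharmeWT and at 7348 and 12536 CPM in CharmeKO pools 1 and 2. Summed markers of S and G2/M phase were at 407 to 571 CPM in CharmeWT and at 1752 and 960 CPM in CharmeKO pools, and erythroid markers at 869.8 to 1254 CPM and at 2284 and 1619 CPM. The part of these cells and phases in the values below was not tested. Levels are given below in FPKM, which is CPM divided by the length of the gene in kilobases. They are per length, so a comparison between genes rests on that length, which joins all annotated exons of a gene, expressed or not. Differences are fitted log2 fold changes, CharmeKO over CharmeWT, as estimated by edgeR, whose quasi-likelihood test gave every adjusted p below unless another test is named, with Benjamini-Hochberg correction across 14880 tested genes. Calls required an adjusted p under 0.1 together with a mean of 1 FPKM or more in either genotype. A fit that leaves out a CharmeKO pool holds 1 CharmeKO pool, so its spread comes from the CharmeWT pools and the lone pool is assumed to vary as they do.

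Transcripts of 2 genes rose in CharmeKO hearts, Oxct1 of ketone body use and Pcx of anaplerosis, and 0 of the 37 were called lower. Among all genes tested, 1.53% were called higher and 0.524% lower. The edgeR likelihood ratio test called 5 of the 37 higher (Oxct1, Pcx, Bdh1, Bckdhb and Pcca) and 0 lower, against 3.92% and 2.35% of all genes. DESeq2 called 6 higher (Oxct1, Bdh1, Bckdhb, Pcca, Sucla2 and Mut) and 1, Ogdh, lower, against 4.33% and 3.21% of all genes, and did not call Pcx (adjusted p = 0.105). By the quasi-likelihood test, 11 of the 37 were higher at an unadjusted p under 0.05 and 2, Ogdh and Me3, were lower, where 10.6% of all genes were higher and 8.01% lower. Because whole hearts were sequenced, fewer cells of a type and less RNA per cell cannot be told apart.

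The direction was uneven over the list. Fitted values were higher in CharmeKO hearts for 26 genes and lower for 11, and the median of the log2 fold changes was 0.30 for the 37 and 0.02 for all genes tested. Both CharmeKO pools lay above every CharmeWT pool for 15 genes and below for 2 (Ogdh and Me3), where 17.8% of all genes lay above and 18.2% below. The remaining 20 overlapped, as did 9516 of all 14880 genes tested. Of all genes tested, 7715 had higher and 7165 lower fitted values. With 3 pools against 2, no exact two-sided p for a single gene can fall below 0.1, and pools that do not overlap need not reach that value. CharmeKO pool 1 had the higher value of the pair for 26 of the 37 genes, and for 7358 of all 14880 genes tested. That pool lay above every CharmeWT pool for 24 genes and CharmeKO pool 2 for 16, where 39.1% and 30.4% of all genes did so. Both counts include the 15 genes with both pools above.

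**Figure D1:**
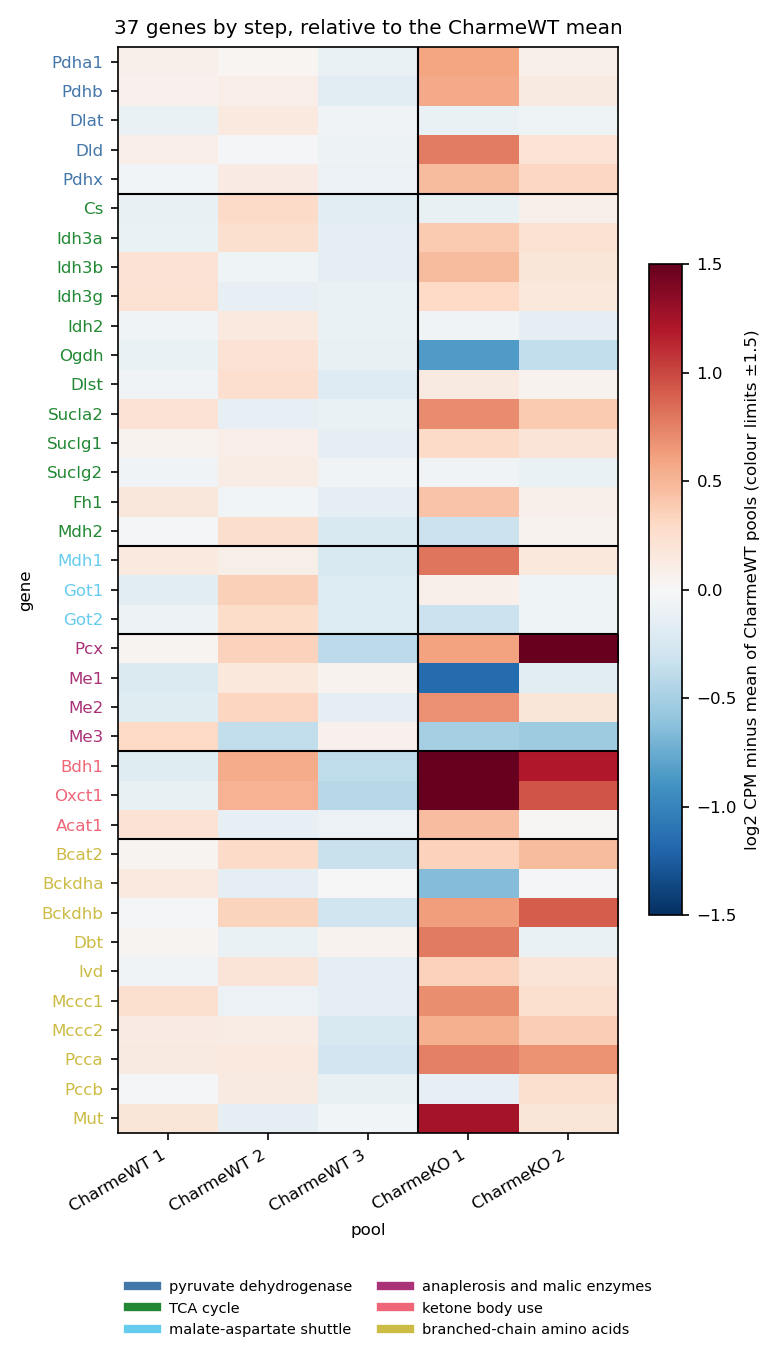
Level of each of the 37 genes (rows, grouped by step) in each of the 5 pools (columns), as log2 CPM minus the mean of the CharmeWT pools, in red where higher and blue where lower, with colours limited to ±1.5. The rows of Oxct1 and Bdh1 are red in both CharmeKO pools, Pcx is deepest in CharmeKO pool 2, and most other rows are redder in CharmeKO pool 1 than in pool 2.

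The steps differed in size. Ketone body use had the largest median log2 fold change, 1.34 over 3 genes, followed by branched-chain amino acids with 0.43 over 10 genes and pyruvate dehydrogenase with 0.37 over 5. The median of the 3 ketone genes is the value of Bdh1, which was not called, and Acat1 was at 0.25. The TCA cycle had a median of 0.15 over 12 genes, the shuttle -0.02 over 3, and anaplerosis with the malic enzymes -0.05 over 4. Relative to the CharmeWT mean, the median of the ketone genes was 1.51 in CharmeKO pool 1 (the value of Bdh1) and 0.95 in pool 2 (that of Oxct1). The medians of the CharmeWT pools ranged from -0.38 to 0.52. The medians of the other steps were smaller, and so were the ranges of their CharmeWT pools. For the branched-chain genes the median was 0.58 and 0.24, with CharmeWT pools from -0.14 to 0.12. For pyruvate dehydrogenase it was 0.57 and 0.13, with CharmeWT pools from -0.09 to 0.09. For the TCA cycle it was 0.21 and 0.08, and only pool 1 was outside the CharmeWT range of -0.14 to 0.13. These medians are descriptions, and the differences between steps were not tested.

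**Figure D2:**
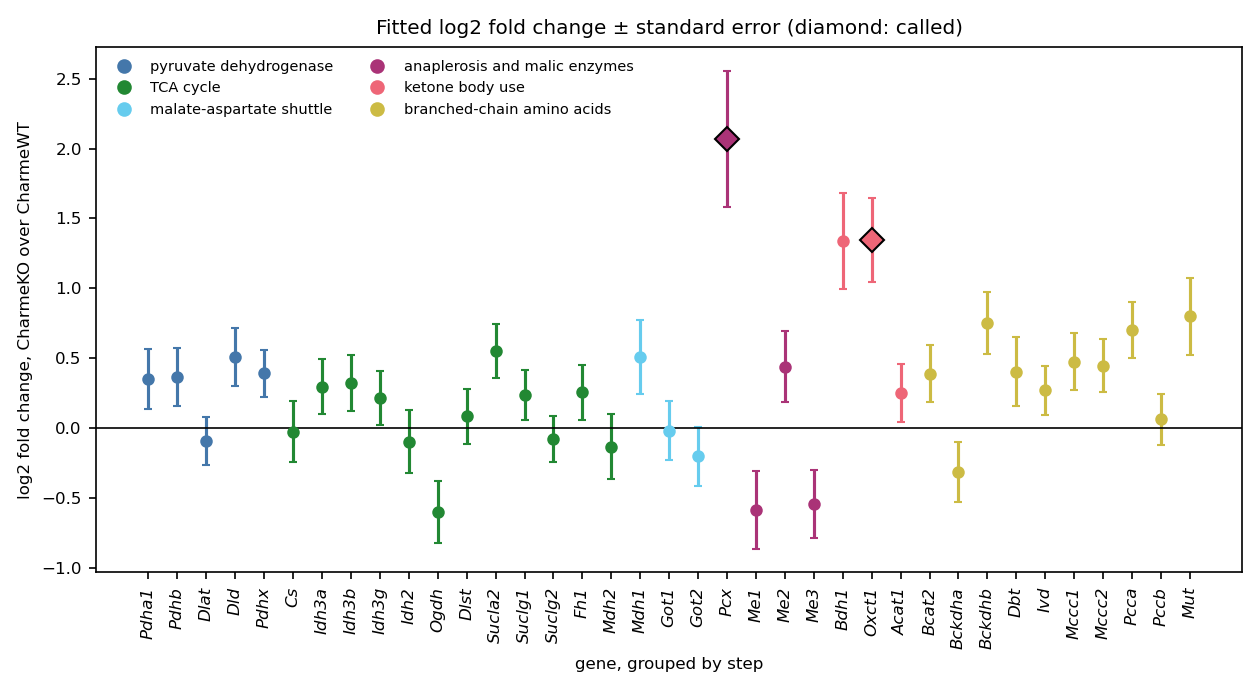
Fitted log2 fold change, CharmeKO over CharmeWT, of each of the 37 genes (horizontal axis, grouped by step), with bars of 1 standard error and diamonds for the 2 called genes. Pcx stands highest at 2.07, Oxct1 and Bdh1 follow at 1.34, and Ogdh is lowest at -0.60.

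Among the genes of ketone body use, Oxct1 (ENSMUSG00000022186, chr15:4026383-4155344 on GRCm38, plus strand) encodes the succinyl-CoA transferase that activates acetoacetate, the step that lets a tissue outside the liver burn ketone bodies. Its level was 58.6, 90.4 and 47.4 FPKM in CharmeWT pools 1 to 3, and 211 and 122 FPKM in CharmeKO pools 1 and 2. Both CharmeKO pools were above the highest CharmeWT pool, and the means were 65.5 ± 22.3 (SD, n = 3) and 166 ± 62.8 (SD, n = 2). The difference was 2.54-fold, or 1.34 on the log2 scale (standard error 0.300), and edgeR's test gave an adjusted p of 0.0798. The call was lost without CharmeWT pool 1 (adjusted p = 0.244), CharmeWT pool 3 (0.362) or CharmeKO pool 1 (0.1003, with a log2 fold change of 0.90), and with a correction for gene length and GC content (0.103).

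Bdh1, the mitochondrial dehydrogenase that interconverts 3-hydroxybutyrate and acetoacetate, was scarce. Its level was 0.575, 0.975 and 0.494 FPKM in the CharmeWT pools and 1.91 and 1.53 FPKM in the CharmeKO pools, from 38 to 133 counts per pool. The groups did not overlap, and the log2 fold change was 1.34 (standard error 0.346), with an adjusted p of 0.117 in the quasi-likelihood test and 0.0239 in the likelihood ratio test. Acat1, the mitochondrial thiolase that splits acetoacetyl-CoA and also acts in isoleucine breakdown, had the highest mean of the 3 over the 5 pools, although Oxct1 was above it in CharmeKO pool 1. It stood at 153, 122 and 124 FPKM in CharmeWT and at 183 and 134 FPKM in CharmeKO pools, which overlapped (log2 fold change 0.25, adjusted p = 0.532). Within a pool, the ratio of Bdh1 to Oxct1 was 0.00980, 0.0108 and 0.0104 in CharmeWT and 0.00908 and 0.0126 in CharmeKO pools, which overlapped.

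**Figure D3:**
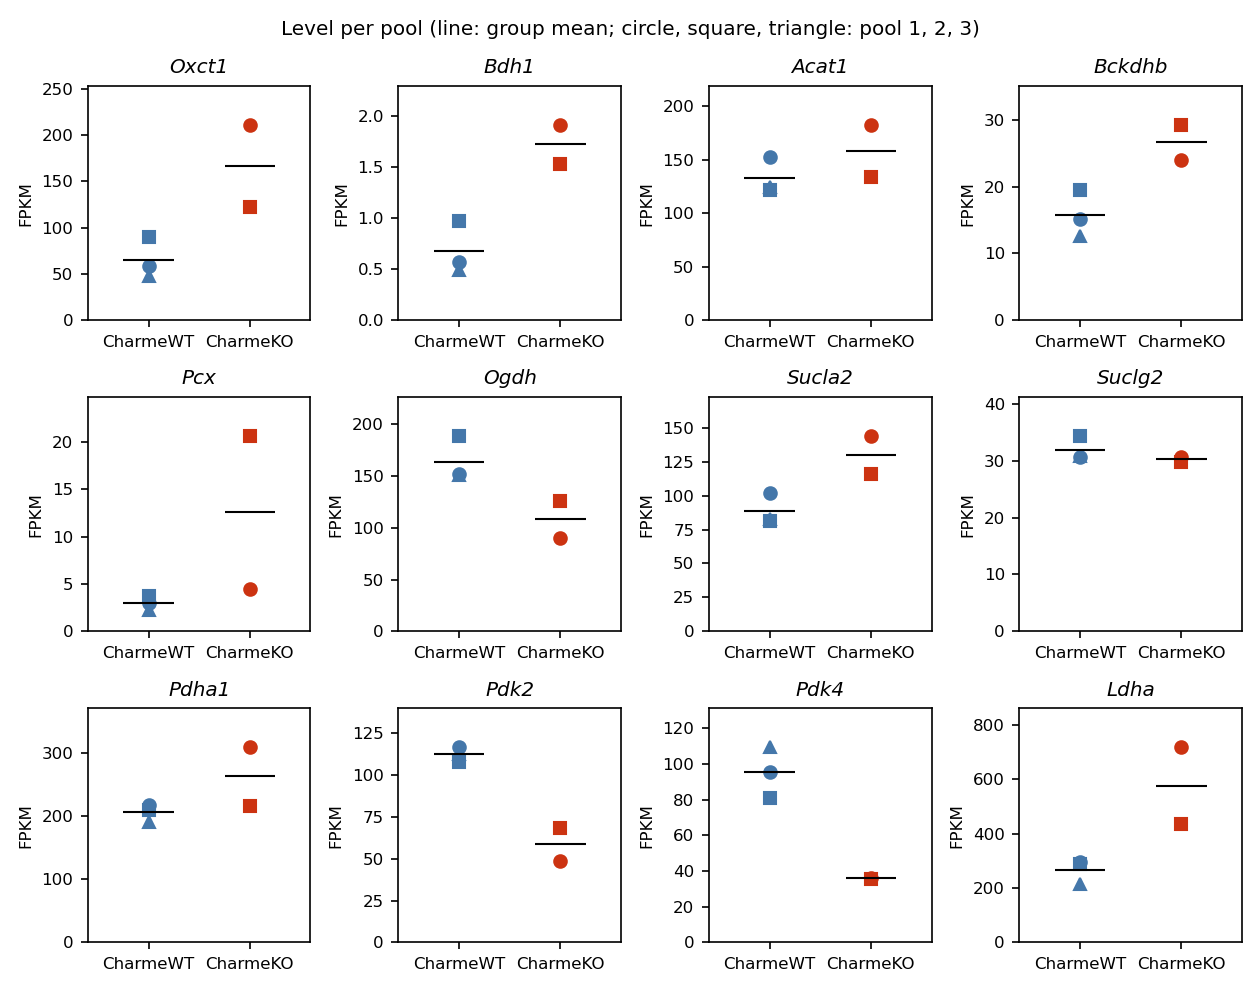
Level in FPKM (vertical axes from 0) of 12 genes in each pool, with 3 CharmeWT pools in blue, 2 CharmeKO pools in red, circle, square and triangle for pools 1, 2 and 3, and a line at each group mean. Oxct1, Bdh1, Bckdhb, Pcx, Sucla2 and Ldha have both CharmeKO pools above every CharmeWT pool, Ogdh, Pdk2 and Pdk4 have both below, and the pools of Acat1, Suclg2 and Pdha1 overlap.

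In anaplerosis, Pcx (ENSMUSG00000024892, chr19:4510472-4621752 on GRCm38, plus strand) encodes pyruvate carboxylase, which makes oxaloacetate from pyruvate and is abundant in liver and fat. Its level was 3.03, 3.75 and 2.23 FPKM in the CharmeWT pools, 4.49 FPKM in CharmeKO pool 1 and 20.6 FPKM in CharmeKO pool 2. Both CharmeKO pools were above every CharmeWT pool, but pool 1 by little and pool 2 by far, and the CharmeKO mean of 12.6 FPKM had an SD of 11.4 (n = 2). The fitted log2 difference was 2.07, with a standard error of 0.488 and an adjusted p of 0.0923. It was 0.57 (adjusted p = 0.145) without CharmeKO pool 2 and 2.78 without CharmeKO pool 1, where the high pool 2 stood as the lone CharmeKO pool. The call was also lost without CharmeWT pool 1 (adjusted p = 0.244), pool 2 (0.121) or pool 3 (0.406).

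CharmeKO pool 2, which had the high Pcx, stood apart in markers of other tissues. Of 7 markers of brown and white fat, 6 were tested, all 6 were higher in CharmeKO and 4 were called. Their summed level was 528 to 689 CPM in CharmeWT pools, 697 CPM in CharmeKO pool 1 and 2058 CPM in CharmeKO pool 2. Fabp4 alone was at 494 to 648 CPM in CharmeWT and at 627 and 1008 CPM in CharmeKO pools 1 and 2. Adipoq, Plin1 and Cidec were at 0 to 0.728 CPM in CharmeWT pools. They were at 2.90, 3.83 and 2.41 CPM in CharmeKO pool 1 and at 81.4, 77.2 and 44.3 CPM in pool 2. Cidea was at 28.0 to 35.5 CPM in CharmeWT and at 23.6 and 136 CPM in CharmeKO pools 1 and 2. Ucp1, the uncoupling protein of brown fat, had 0 counts in CharmeWT pools 2 and 3, 3.74 CPM in CharmeWT pool 1, 36.9 CPM in CharmeKO pool 1 and 709.6 CPM in CharmeKO pool 2. Of 7 salivary gland markers, 5 were tested, all 5 were higher and 4 were called, with summed levels of 0.340 to 3.59 CPM in CharmeWT pools, 328 CPM in CharmeKO pool 1 and 24741 CPM in CharmeKO pool 2. Bpifa2, Smgc and Prol1 of that list had 0 counts in every CharmeWT pool. Of the 37 genes, 26 were higher in CharmeKO pool 1 than in pool 2, and Bckdhb and Bcat2 were, like Pcx, higher in pool 2. The part of these tissues in the values of Pcx, Bckdhb, Bcat2 or any other of the genes was not tested.

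The 3 malic enzymes, which convert malate to pyruvate, were not called by any of the 3 tests. Me1, the cytosolic form, stood at 12.5, 16.3 and 15.1 FPKM in CharmeWT and at 6.50 and 12.9 FPKM in CharmeKO pools, where only pool 1 was below the CharmeWT range (log2 fold change -0.58, adjusted p = 0.291). Me3, a mitochondrial form, was at 1.90, 1.19 and 1.61 FPKM in CharmeWT and 1.09 and 1.06 FPKM in CharmeKO pools, below every CharmeWT pool (log2 fold change -0.54, adjusted p = 0.267). Me2, the other mitochondrial form, had a log2 fold change of 0.44 with overlapping pools.

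The regions before the start sites of 3 genes are printed for reference, those of the 2 called genes and of Ogdh, the gene with the largest fitted decrease among the 37. They are RefSeq promoter windows on GRCm38.p6, plus strand, 5′ to 3′, from 250 bases before the start to 10 bases after it. Capitals mark matches on either strand to 5 motifs: the nuclear receptor element AAGGTCA, the ETS core CCGGAAG, the NRF1 core GCGCATGC, the E-box CACGTG and the GC box GGGCGG. Oxct1 has 1 window (chr15:4026178-4026437), Pcx has 2, of which that at chr19:4510222-4510481 is shown, and Ogdh has 6, of which that at chr11:6291920-6292179, with the most kinds of match, is shown.
Oxct1: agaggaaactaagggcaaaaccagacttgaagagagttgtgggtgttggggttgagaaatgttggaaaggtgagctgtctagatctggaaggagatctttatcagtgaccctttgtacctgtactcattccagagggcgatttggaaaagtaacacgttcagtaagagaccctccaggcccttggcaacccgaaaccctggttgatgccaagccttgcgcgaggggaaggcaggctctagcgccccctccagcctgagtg
Pcx: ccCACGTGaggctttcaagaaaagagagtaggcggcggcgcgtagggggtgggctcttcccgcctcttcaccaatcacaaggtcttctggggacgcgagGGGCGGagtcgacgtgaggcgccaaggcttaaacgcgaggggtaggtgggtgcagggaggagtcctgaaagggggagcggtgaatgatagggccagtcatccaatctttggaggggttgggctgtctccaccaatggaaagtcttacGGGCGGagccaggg
Ogdh: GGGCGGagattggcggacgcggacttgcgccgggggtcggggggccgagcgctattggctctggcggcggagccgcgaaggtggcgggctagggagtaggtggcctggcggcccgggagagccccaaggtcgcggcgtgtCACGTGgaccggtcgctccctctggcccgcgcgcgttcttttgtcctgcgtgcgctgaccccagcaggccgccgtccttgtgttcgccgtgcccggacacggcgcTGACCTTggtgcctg

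The Oxct1 window held none of the 5 motifs. The Pcx window held 1 E-box and 2 GC boxes, and the Ogdh window 1 nuclear receptor element, 1 E-box and 1 GC box. Over whole windows of 300 bases, 32 of the 37 genes had an entry (Idh3a, Me2, Acat1, Dbt and Mut did not). Of these, 56.2% held a GC box, against 38.2% of the 27025 genes with a window. The ETS core was in 9.38% of the 32 against 9.93% of all, the E-box in 9.38% against 8.09%, the nuclear receptor element in 6.25% against 5.38% and the NRF1 core in 6.25% against 3.05%. The GC box was the most common of the 5 in both sets. Of all 32851 windows, 35.7% held a GC box, 8.86% an ETS core, 7.15% an E-box, 4.72% a nuclear receptor element and 2.71% an NRF1 core. A match is a run of letters and not a binding site, and neither group of genes was tested for these shares.

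Of the 5 genes of pyruvate dehydrogenase, 4 had higher fitted values and 0 were called by any of the 3 tests. At an unadjusted p under 0.05, 2 (Dld and Pdhx) were higher, where 10.6% of all genes were higher. Pdha1, which encodes the catalytic alpha subunit and was the most abundant of the 5, stood at 217, 209.6 and 191 FPKM in CharmeWT and at 309 and 216 FPKM in CharmeKO pools. Only CharmeKO pool 1 was outside the CharmeWT range (log2 fold change 0.35, adjusted p = 0.398), and the value was 0.07 without that pool. Pdhb, the beta subunit, had a log2 fold change of 0.37, and the ratio of Pdha1 to Pdhb was 1.26 to 1.37 in CharmeWT and 1.33 and 1.27 in CharmeKO pools.

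Dld encodes the dihydrolipoamide dehydrogenase that pyruvate dehydrogenase shares with the oxoglutarate and branched-chain complexes. It was at 105, 96.8 and 93.1 FPKM in CharmeWT and at 167 and 113 FPKM in CharmeKO pools, above every CharmeWT pool. Its log2 fold change of 0.51 (adjusted p = 0.239) became 0.10 with the length and GC correction and 0.20 without CharmeKO pool 1. Pdhx, a structural subunit, had 0.39 with both CharmeKO pools above. Dlat, the acetyltransferase core, was at 51.4, 61.1 and 53.0 FPKM in CharmeWT and at 51.2 and 52.4 FPKM in CharmeKO pools (log2 fold change -0.09, adjusted p = 0.800).

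The kinases that switch pyruvate dehydrogenase off by phosphorylation fell at 2 of their 4 genes. Pdk4, the kinase induced by fasting and fatty acids, was at 95.8, 81.2 and 109.5 FPKM in CharmeWT and at 36.2 and 35.8 FPKM in CharmeKO pools. Both CharmeKO pools were well below every CharmeWT pool (log2 fold change -1.41, standard error 0.194, adjusted p = 0.0336), and the value was -1.41 without either of them. Pdk2 was at 117, 108 and 113 FPKM in CharmeWT and at 48.6 and 68.7 FPKM in CharmeKO pools, again without overlap (log2 fold change -0.94, standard error 0.200, adjusted p = 0.0693). Pdk1 had a log2 fold change of 0.53 (adjusted p = 0.283) and Pdk3 of 0.20 (0.558). Without CharmeWT pool 1 or 3 the calls of Pdk4 (adjusted p = 0.127 and 0.211) and Pdk2 (0.228 and 0.340) were lost, and that of Pdk2 also without CharmeWT pool 2 (0.140).

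Ldha, the lactate dehydrogenase subunit of glycolytic tissue, rose. It was at 297, 288 and 214 FPKM in CharmeWT and at 718 and 435 FPKM in CharmeKO pools, above every CharmeWT pool (log2 fold change 1.11, standard error 0.265, adjusted p = 0.0948). Its call was lost without any single CharmeWT pool (adjusted p from 0.178 to 0.447), without CharmeKO pool 1 (0.137, log2 fold change 0.71) and with the length and GC correction (0.111). Ldhb, the subunit typical of heart, had 0.30 with overlapping pools, and Mpc1 of the mitochondrial pyruvate carrier had 0.63 (adjusted p = 0.187).

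Of the 12 genes of the TCA cycle, 7 had higher and 5 lower fitted values, 9 overlapped between the genotypes and 0 were called by the quasi-likelihood or likelihood ratio tests. At an unadjusted p under 0.05, Sucla2 was higher and Ogdh lower, the 2 genes of the cycle that DESeq2 called. Among all genes, 10.6% were higher and 8.01% lower at that unadjusted p, and 9516 of the 14880 tested overlapped between the genotypes. Idh2, the mitochondrial NADP-dependent isocitrate dehydrogenase, had the highest mean over the 5 pools of all 37 genes, although Mdh1 was above it in both CharmeKO pools. It stood at 845, 967 and 816 FPKM in CharmeWT and at 844 and 794 FPKM in CharmeKO pools (log2 fold change -0.10, adjusted p = 0.843). Idh3a, Idh3b and Idh3g, the subunits of the NAD-dependent enzyme of the cycle, had log2 fold changes of 0.30, 0.32 and 0.22 with overlapping pools. The ratio of Idh2 to Idh3a was 9.24, 8.39 and 9.19 in CharmeWT and 6.59 and 6.96 in CharmeKO pools, below every CharmeWT pool.

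Ogdh, the decarboxylating subunit of the oxoglutarate dehydrogenase complex, was at 152, 189 and 151 FPKM in CharmeWT and at 90.5 and 126 FPKM in CharmeKO pools. Both CharmeKO pools were below every CharmeWT pool, with means of 164 ± 21.5 (SD, n = 3) and 108 ± 24.9 (SD, n = 2). The log2 fold change of -0.60 (standard error 0.224) had an adjusted p of 0.212 by the quasi-likelihood test, 0.0902 by DESeq2 and 0.158 by the likelihood ratio test. It was -0.38 without CharmeKO pool 1 and -0.86 without CharmeKO pool 2. Dlst, the succinyltransferase of the same complex, was at 0.09 with overlapping pools, and Dld is given above.

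Succinyl-CoA synthetase pairs the alpha subunit Suclg1 with either of 2 beta subunits, Sucla2 for the ATP-forming enzyme and Suclg2 for the GTP-forming one. Sucla2 was at 102, 81.0 and 82.4 FPKM in CharmeWT and at 144 and 116 FPKM in CharmeKO pools, without overlap (log2 fold change 0.55, adjusted p = 0.196, and 0.27 with the length and GC correction). Suclg2 was at 30.6, 34.3 and 30.8 FPKM in CharmeWT and 30.7 and 29.8 FPKM in CharmeKO pools (log2 fold change -0.08, adjusted p = 0.823). The ratio of Sucla2 to Suclg2 was therefore 3.33, 2.36 and 2.67 in CharmeWT and 4.68 and 3.89 in CharmeKO pools, above every CharmeWT pool. Suclg1 had 0.24 (adjusted p = 0.482). Cs, citrate synthase at the entry of the cycle, had -0.03, Fh1, fumarase, 0.26, and Mdh2, the mitochondrial malate dehydrogenase, -0.13, all with overlapping pools.

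**Figure D4:**
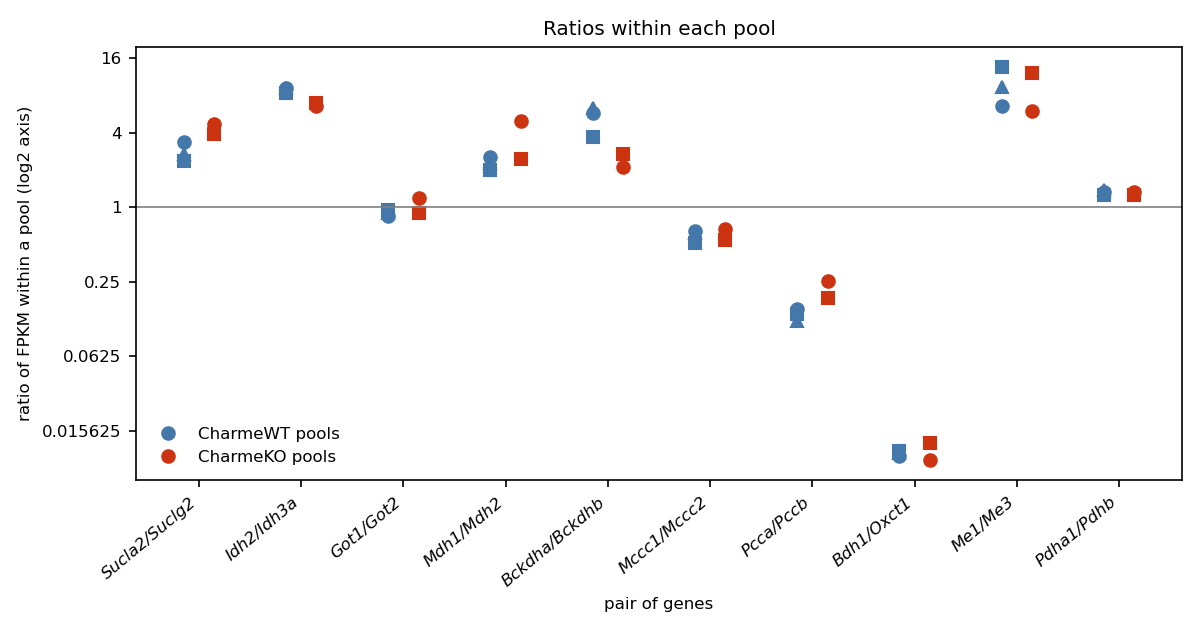
Ratio of the FPKM of 2 genes within each pool (log2 axis) for 10 pairs of subunits, isozymes or partners, with CharmeWT pools in blue and CharmeKO pools in red and circle, square and triangle for pools 1, 2 and 3. Both CharmeKO pools are above every CharmeWT pool for Sucla2/Suclg2 and Pcca/Pccb, below for Idh2/Idh3a and Bckdha/Bckdhb, and the other 6 pairs overlap.

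None of the 3 genes of the malate-aspartate shuttle passed any of the tests, and 0 had an unadjusted p under 0.05. Mdh1, the cytosolic malate dehydrogenase, was at 796, 763 and 614 FPKM in CharmeWT and at 1258 and 805 FPKM in CharmeKO pools. CharmeKO pool 2 was just above the highest CharmeWT pool and pool 1 far above it (log2 fold change 0.51, adjusted p = 0.328, and 0.15 without pool 1). The transaminases Got1, cytosolic, and Got2, mitochondrial, had log2 fold changes of -0.02 and -0.20. Got2 was at 129, 164 and 117 FPKM in CharmeWT and at 108 and 129 FPKM in CharmeKO pools, which overlapped. The ratio of Mdh1 to Mdh2 was 2.01 to 2.55 in CharmeWT, 4.94 in CharmeKO pool 1 and 2.44 in CharmeKO pool 2.

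Of the 10 genes of branched-chain amino acid breakdown, 9 had higher fitted values, 6 had both CharmeKO pools above every CharmeWT pool (Bcat2, Bckdhb, Ivd, Mccc1, Mccc2 and Pcca) and 0 were called. Of the 10, 5 were higher at an unadjusted p under 0.05, the likelihood ratio test called Bckdhb and Pcca, and DESeq2 called these and Mut. Among all genes tested, 17.8% had both CharmeKO pools above and 10.6% were higher at an unadjusted p under 0.05. The likelihood ratio test called 3.92% of all genes higher, and DESeq2 4.33%. Bcat2, the mitochondrial aminotransferase that starts the pathway, was at 20.1, 23.9 and 15.4 FPKM in CharmeWT and at 24.8 and 27.1 FPKM in CharmeKO pools (log2 fold change 0.39, adjusted p = 0.334). The branched-chain ketoacid dehydrogenase that follows is built from Bckdha, Bckdhb, Dbt and the shared Dld. Bckdhb, its beta subunit, was at 15.2, 19.5 and 12.6 FPKM in CharmeWT and at 24.0 and 29.2 FPKM in CharmeKO pools. The CharmeKO pools were above every CharmeWT pool, by 0.76 on the log2 scale (standard error 0.222), with an adjusted p of 0.149 in the quasi-likelihood test and 0.0577 in the likelihood ratio test. CharmeKO pool 2 was the higher of the pair, and the value was 0.89 without CharmeKO pool 1 and 0.60 without CharmeKO pool 2. Bckdhb was not called without CharmeWT pool 1 (adjusted p = 0.292), pool 2 (0.165) or pool 3 (0.552), and was called in the fits with a lone CharmeKO pool 2 (0.0472) or pool 1 (0.0782).

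Bckdha, the alpha subunit of the same enzyme, was at 87.7, 72.1 and 79.3 FPKM in CharmeWT and at 50.5 and 77.8 FPKM in CharmeKO pools (log2 fold change -0.31, adjusted p = 0.446). Only CharmeKO pool 1 was below the CharmeWT range, and the value was -0.03 without it. The ratio of Bckdha to Bckdhb was 5.77, 3.70 and 6.30 in CharmeWT and 2.11 and 2.67 in CharmeKO pools, below every CharmeWT pool. Dbt, the transacylase core, was at 20.1 FPKM in CharmeKO pool 1 and 10.9 FPKM in pool 2, against 10.9 to 12.1 FPKM in CharmeWT pools.

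Leucine continues through Ivd, isovaleryl-CoA dehydrogenase, and the carboxylase of Mccc1 and Mccc2. Their log2 fold changes were 0.27, 0.48 and 0.45, with adjusted p of 0.425, 0.253 and 0.255. Mccc1 and Mccc2 kept a ratio of 0.518 to 0.642 in CharmeWT and of 0.662 and 0.542 in CharmeKO pools. In CharmeKO pool 2, Mccc1 at 8.64 FPKM was just above the highest CharmeWT pool, at 8.59 FPKM.

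Valine and isoleucine end in propionyl-CoA, which propionyl-CoA carboxylase and methylmalonyl-CoA mutase turn into succinyl-CoA. Pcca, the alpha subunit of the carboxylase, was at 6.05, 6.12 and 4.53 FPKM in CharmeWT and at 9.36 and 8.78 FPKM in CharmeKO pools. Both CharmeKO pools were above and close to each other (log2 fold change 0.70, standard error 0.199, adjusted p = 0.139, and 0.0527 in the likelihood ratio test). Pccb, its beta subunit, was at 0.06, and the ratio of Pcca to Pccb was 0.152, 0.137 and 0.121 in CharmeWT and 0.252 and 0.184 in CharmeKO pools. Mut, the mutase, was at 15.7, 12.5 and 13.5 FPKM in CharmeWT and at 32.8 and 15.7 FPKM in CharmeKO pools. Its log2 fold change of 0.80, the largest of the 10, had an adjusted p of 0.190. It was 0.17 without CharmeKO pool 1 and 0.42 with the length and GC correction.

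The 37 genes also differed in how far a single CharmeKO pool carried them. Without CharmeKO pool 1 the median of the 37 was 0.15 and 2 genes were called higher (Pcx and Bckdhb), against 3.06% of all genes. Without CharmeKO pool 2 it was 0.41 and 18 were called, 15 higher and 3 (Ogdh, Me1 and Bckdha) lower, in a fit that called 16.1% of all genes higher and 15.6% lower. Without CharmeWT pool 1 or CharmeWT pool 3, 0 of the 37 were called, and 9 and 7 had an unadjusted p under 0.05. The fit without CharmeWT pool 3 called no gene of all those tested. With the length and GC correction the median was 0.15, and the 2 called genes were Pcx and Bdh1. CharmeKO pool 1 is the pool with the larger share of mitochondrially encoded counts, and the part of that share in these values was not tested.

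**Figure D5:**
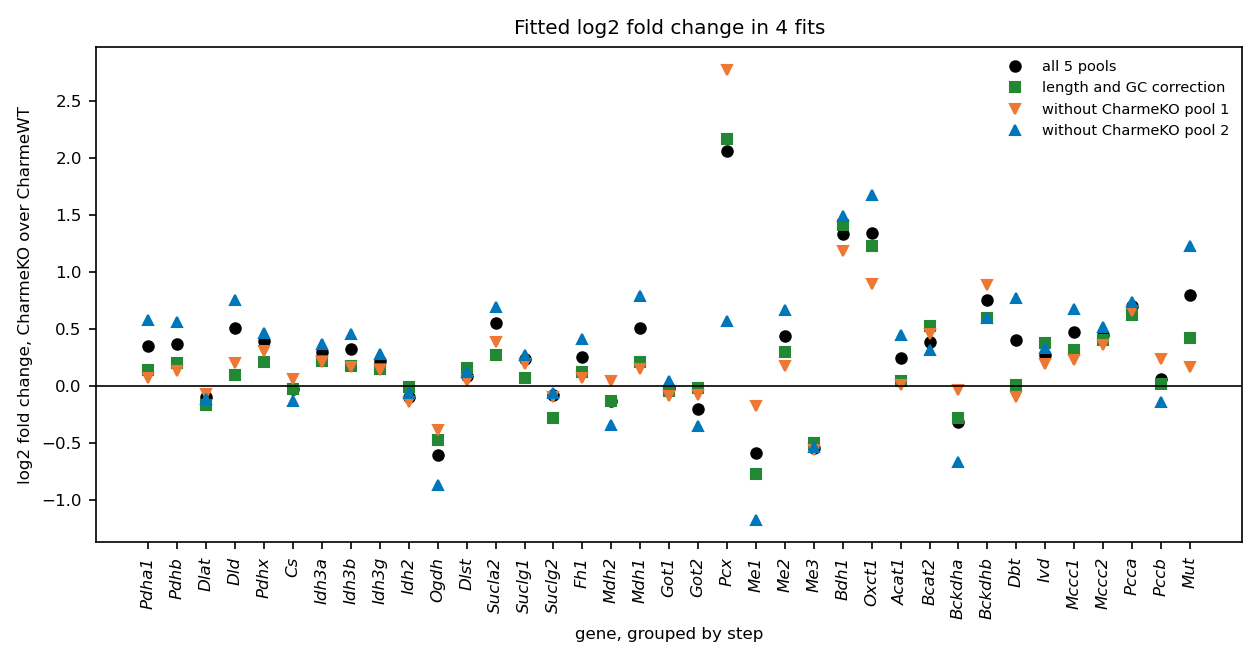
Fitted log2 fold change of each of the 37 genes (horizontal axis, grouped by step) with all 5 pools, with the length and GC correction, and without either CharmeKO pool. Bdh1, Oxct1, Bckdhb and Pcca stay above 0.5 in all 4 fits, as does Pcx, which is at 0.57 without CharmeKO pool 2, and Ogdh and Me3 are below 0 in all 4.

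The other genes of these pathways were looked up as a list of 60, of which all were tested. Of these, 42 had higher and 18 lower fitted values, and their log2 fold changes had a median of 0.10. Calls fell on 3, Ldha higher and Pdk4 and Pdk2 lower, where 1.53% of all genes were called higher and 0.524% lower. At an unadjusted p under 0.05, 6 were higher and 5 lower, 11 of 60 in all, beside 18.6% of all genes. Among 7 TCA cycle genes outside the 37, which include aconitase and the subunits of succinate dehydrogenase, 0 were called by any of the 3 tests, 0 had an unadjusted p under 0.05, and log2 fold changes ran from -0.09 to 0.48. Among 19 further genes of branched-chain amino acid transport and breakdown, 0 were called by any of the 3 tests, 14 were higher and 5 lower, 2 had an unadjusted p under 0.05 (Acadsb higher and Hlcs lower), and the median was 0.20. Bdh2, a cytosolic dehydrogenase, was listed at 0.320 to 0.595 FPKM in CharmeWT and at 0.233 and 0.232 FPKM in CharmeKO pools (log2 fold change -0.97, adjusted p = 0.267). Bcat1, the cytosolic aminotransferase, was at 0.152 to 0.219 FPKM in CharmeWT and at 0.274 and 0.361 FPKM in CharmeKO pools (log2 fold change 0.72, adjusted p = 0.295).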

How the data were processed

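RNA from pooled postnatal day 2 hearts (3 CharmeWT and 2 CharmeKO pools) was sequenced by the authors as stranded, poly(A)-selected paired-end libraries. Per the study's methods, reads were trimmed with Trimmomatic and Cutadapt and aligned to GRCm38 with STAR, which counted fragments on the reverse strand of each Ensembl gene. The deposited values are raw counts per gene. A deposited FPKM table was not used, and FPKM was computed from the counts with gene lengths of GENCODE M21. Fragments that map to several places were not counted.

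Genes that reached 10 counts in 2 or more pools entered the analysis in R 4.3.3 with edgeR 4.0.16, by TMM normalization and the quasi-likelihood test in its newer form, without covariates. Filter, normalization and thresholds follow the study, whose likelihood ratio test is an alternative. Pools are separate sets of hearts, so p-values measure the spread between pools. Totals of 16721055 to 21646378 counts limit precision mainly for genes with few counts, above all Bdh1 (38 to 133 counts per pool). Alternatives were the likelihood ratio test, DESeq2 1.42.0, the legacy and robust forms, RLE, upper-quartile and library-total scaling, other filters and thresholds, a block for the replicate number, a spline correction in each pool for gene length and GC content, omission of mitochondrially encoded and salivary genes, and each pool left out. The script was tested on simulated data.

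The 37 genes were a list written by pathway. The other gene lists, the pairs and the tests were chosen with earlier results of these data known. The salivary gland list holds genes that had been seen to differ. Values in every pool were given for called genes and, in each step, for the largest rise, the largest fall and the most abundant gene, and further genes were named where both CharmeKO pools lay beyond every CharmeWT pool. Of the other pathway genes, those called and the 3 largest rises and falls were named, and Pdk1, Pdk3, Ldhb, Mpc1 and the remaining genes outside these rules were named after their values were seen. A pair of genes of the planned list is not reported here. No protein-coding gene overlaps any of the 37 on the same strand. Of the marker lists, 0 of 12 cardiomyocyte, 6 endothelial, 7 fibroblast, 7 macrophage and 4 tested liver genes were called, with 1, 3, 1, 0 and 0 at an unadjusted p under 0.05, and the likelihood ratio test called 1 cardiomyocyte and 1 fibroblast gene. Of smooth muscle markers 1 of 6 was called higher, of erythroid markers 3 of 7, of skeletal muscle markers 2 of 7 and of S and G2/M phase genes 5 of 8.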

Additional observations from a re-analysis of the deposited data

How the results depend on the processing

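Under the alternatives, the number of the 37 genes called (2) became 5 with the likelihood ratio test, 7 with DESeq2, 1 (Oxct1) with the legacy and 1 (Oxct1) with the robust quasi-likelihood test, and 0 with library totals alone (9 at an unadjusted p under 0.05) or an adjusted p under 0.05. It ranged from 0 to 18 when a pool was left out. Among all genes the count (305) became 933 with the likelihood ratio test, 1122 with DESeq2, 105 with library totals, 111 at an adjusted p under 0.05 and ranged from 0 to 4607 when a pool was left out. Among the 60 other pathway genes the count (3) became 1 with library totals and 1 at an adjusted p under 0.05, and ranged from 0 to 21 when a pool was left out. The 0 among all genes was without CharmeWT pool 3, with 1315 genes at an unadjusted p under 0.05. The calls of all genes split into 227 higher and 78 lower, and into 226 and 132 with the length and GC correction. Library totals shifted the median log2 fold change of all genes to -0.13, of the 37 to 0.14, of pyruvate dehydrogenase to 0.19, of the branched-chain genes to 0.27 and of the TCA cycle to -0.01. With the length and GC correction the median of pyruvate dehydrogenase was 0.14. It was 0.13 without CharmeKO pool 1 and 0.56 without CharmeKO pool 2, and that of the branched-chain genes was 0.23 without CharmeKO pool 1. Ppargc1a changed sign without CharmeKO pool 1 (-0.042), and over the pools left out it ranged from -0.042 to 1.28.

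Replicate numbers mark no stated litter or batch. Deviations of same-numbered pools correlated at 0.14 and 0.08 across genes. With only 2 CharmeKO pools these values cannot show whether same-numbered pools share a litter or batch. With the replicate number as a block, 0 of the 37 genes (9 at an unadjusted p under 0.05), 2 of the 60 and 210 of all genes were called, with Pcx at 1.53 (adjusted p = 0.114) and Oxct1 at 1.14 (0.131). With the block and the length and GC correction, 0 of the 37, 1 of the 60 (Pdk4) and 28 of all genes were called, and Suclg1 (-0.0057), Acat1 (-0.0027) and Pccb (-0.028) changed sign. Other genes of the 37 near 0 also changed sign: Dlst (-0.07) and Pccb (-0.07) with library totals, Cs (0.01) and Got1 (0.01) with upper-quartile scaling, and some of Cs, Got1, Mdh2, Dbt, Dlst and Pccb when a pool was left out. The causes of these changes were not tested. Only 2 CharmeKO pools, of fewer hearts than the CharmeWT pools, were available, so no result here separates genotype from pool size.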

Other observations

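Regulators of oxidative metabolism were looked up as a list of 11 genes, of which 0 were called by edgeR's tests or by DESeq2, 2 had an unadjusted p under 0.05 (Ppargc1a higher and Esrra lower), beside 18.6% of all genes, and 6 were higher and 5 lower. Ppargc1a, a coactivator of mitochondrial genes, was at 13.4, 11.9 and 15.2 FPKM in CharmeWT and at 33.0 and 13.1 FPKM in CharmeKO pools, high in CharmeKO pool 1 alone (log2 fold change 0.77, adjusted p = 0.243). Esrra, the estrogen-related receptor that binds many of these genes, and Perm1, a muscle partner of it, were below every CharmeWT pool in both CharmeKO pools. Esrra was at 34.2, 35.6 and 37.7 FPKM in CharmeWT and at 24.3 and 28.0 FPKM in CharmeKO pools (log2 fold change -0.45, adjusted p = 0.214). Perm1 had a log2 fold change of -0.44 (adjusted p = 0.301).

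Cofactor genes, named after their values were seen, lay on either side of 0, and none passed the test. Lipt1, which attaches lipoic acid to the dehydrogenase complexes, was at 2.93 to 3.20 FPKM in CharmeWT and at 5.04 and 4.98 FPKM in CharmeKO pools (log2 fold change 0.70, adjusted p = 0.186). Hlcs, which attaches biotin to the carboxylases, was at 1.15 to 1.44 FPKM in CharmeWT and at 0.611 and 0.949 FPKM in CharmeKO pools (log2 fold change -0.71, adjusted p = 0.227). Slc25a1, the citrate carrier, was at 14.5 FPKM in CharmeKO pool 2 and at 5.07 to 6.93 FPKM in the other 4 pools. CharmeKO pool 2 is the pool with the high markers of fat and salivary gland, and their part in this value was not tested.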
